A study of Caenorhabditis elegans with 4 samples.

Results

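Dense runs are stretches of the Caenorhabditis elegans genome where called SMC-6 peaks follow each other closely. They were chosen by the positions of the peaks alone. Neighbouring peaks of the series-wide list were linked when the gap between them was at most 10 kb, and every peak in a linked run of 5 or more peaks was taken. This gave 517 of the 3380 peaks on the 6 nuclear chromosomes (15.3%), in 73 runs. A further 1643 peaks lay in 675 smaller runs of 2 to 4 peaks, and 1220 peaks had no neighbour within 10 kb and are called single peaks. The rule used the gaps of the called peaks, and the scores and widths come from the same calls. Those values are therefore given as a description, with no test.

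SMC-6 is a subunit of the SMC-5/6 complex, a ring-shaped relative of cohesin and condensin that holds DNA and uses ATP. The complex is known for its part in the repair of DNA by recombination between sister chromatids and in keeping repeated DNA, such as arrays of ribosomal RNA genes, intact. In C. elegans it is known from meiosis and from the repair of DNA damage in the germ line. Chromatin immunoprecipitation with sequencing (ChIP-seq) recovers the DNA cross-linked to a protein, and a peak is a stretch where a peak caller finds the recovered DNA enriched.

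Embryos of mixed stages came from a mixed male and hermaphrodite population of the wild-type strain N2 at 20 °C, and were fixed with 2% formaldehyde for 30 min. The groups were 2 SMC-6 ChIP libraries, made with the affinity-purified rabbit polyclonal antibody SDQ4562, and 2 input libraries from the same kind of extract without the antibody. All 4 libraries share strain, genotype and stage, and whole embryos pool many cell types, so an enrichment in a few cells and a weak one in all cells cannot be told apart. Whether replicates 1 and 2 were separate cultures is not stated in the labels, and any spread between them may be technical.

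Each ChIP library had a peak list of its own, with 2065 nuclear peaks in replicate 1 and 1427 in replicate 2, and the third list covered the whole series. Input signal was not analysed here. The values are the authors' scores per peak and the borders of the peaks, on build WS220 (ce10). Scores began at 1.31 in the series-wide list but at 50.01 in replicate 1 and 50.04 in replicate 2. Below, scores of different lists are given side by side. No common scale is known, so a difference between lists is not read as a difference in enrichment. A series-wide peak is said below to be called in a library when a peak of that library overlaps it by at least 1 bp. The series-wide list was probably made from the same 2 libraries, so being called in one is a description of how a peak was found and not independent evidence for it. Sequencing depth is unknown from these lists, and a peak that was not called is not shown to be unbound.

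Dense runs were mostly small. Of the 73 runs, 34 had 5 peaks, 29 had 6 to 9, and 10 had 10 or more. Those 10 runs held 133 of the 517 peaks, and the largest run had 23. The runs spanned between 2.03 and 42.0 kb, with a median of 12.6 kb. Laid end to end they came to 1019 kb, or 1.02% of the 100.3 Mb of nuclear chromosomes counted to the last base of any listed peak, and they held 20.6% of all bases under series-wide peaks. They differed widely in how full they were. Peaks covered a median of 20.7% of a run's span, with a range of 5.45% to 91.8%. In 14 runs at least 50% of the span was under a peak, and in 14 others less than 10% was.

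The number of long runs was set beside the number that placement of the same peaks at a constant rate along each chromosome gives, from a closed formula. The 73 runs and 517 peaks observed stood against 19.4 runs and 105.5 peaks, ratios of 3.77 and 4.90. The ratio for runs was above 1 on every chromosome. It was highest on V, with 9 runs against 0.890, and on II, with 18 against 2.56. It was lowest on I, with 11 against 5.19, and on X, with 9 against 3.81. A constant rate takes no account of a wide enriched stretch that the caller divided into pieces.

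**Figure D1:**
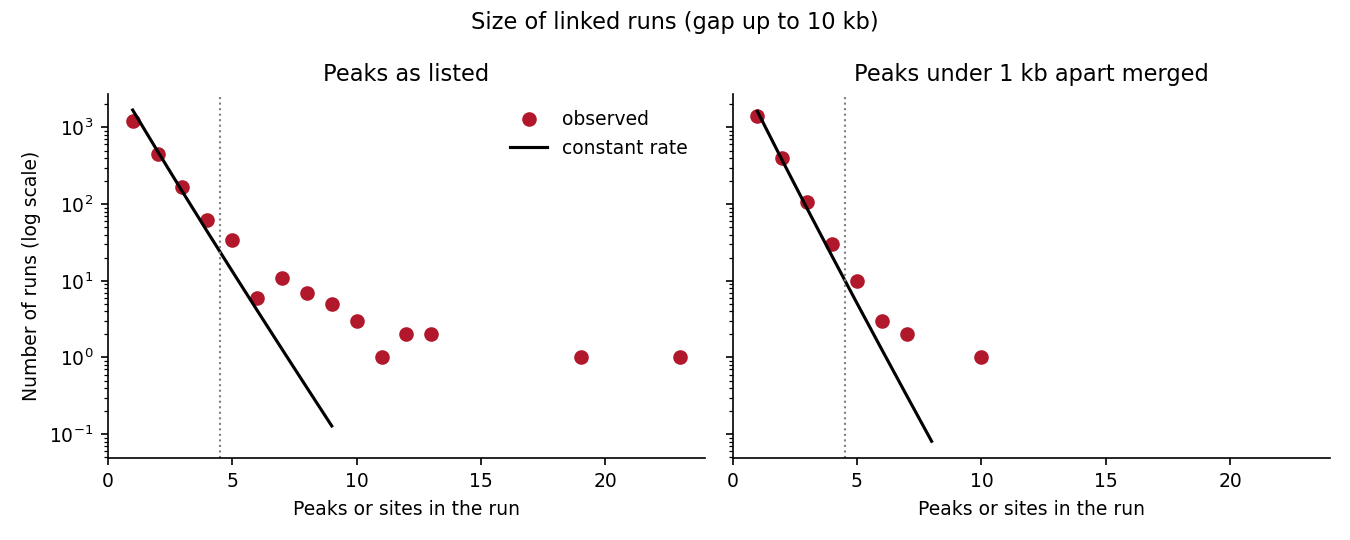
Number of linked runs (log scale) against the number of peaks, or of merged sites, in the run; red points are observed runs and the black line is placement at a constant rate. To the right of the dotted line lie the dense runs, 73 as listed against 19.4 on the line, and 16 after merging against 6.80.

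Gaps inside dense runs were short. Of the 444 gaps between neighbours of a run, 275 (61.9%) were under 1 kb and 124 were under 200 bp, with a median of 495.5 bp. In the runs of 2 to 4 peaks 365 of 968 gaps (37.7%) were under 1 kb, with a median of 1879 bp. Dense runs held 43.0% of all gaps under 1 kb in the list. The shortest gap was 43 bp and the narrowest peak 146 bp, and both values were also the lowest of the whole list.

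Joining peaks under 1 kb apart into 1 site ended most of the runs. The 517 peaks became 242 sites. After joining, 9 runs were a single site, 18 were a pair of sites, 15 had 3 sites, 15 had 4, and 16 still had 5 or more. The 16 that kept their status held 117 of the peaks, as 92 sites. Merged sites placed at a constant rate gave 6.80 runs and 36.3 sites, so the ratios were 2.35 and 2.54. Chromosome III kept 7 of its 15 runs and II kept 4 of 18. On I 1 run was kept, against 1.94 at a constant rate, and on X none of the 9 runs, against 1.31. On I and X the number of runs was above the constant rate in the list as called and not after merging. These counts are too small to show that an excess is absent there, or that I and X differ from other chromosomes.

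Median width, score and coverage were higher in runs of 1 or 2 sites than in runs of 5 or more sites. The 27 runs of 1 or 2 sites, with 205 peaks, had peaks with medians of 372 bp for width and 7.18 for score, and peaks covered a median of 49.2% of their span. In the 16 kept runs the medians were 227 bp and 5.07, and peaks covered a median of 10.8% of their span. In the 30 runs of 3 or 4 sites the values lay between, at 293 bp, 6.07 and 17.0%. In the runs of 1 or 2 sites 48 peaks (23.4%) were called in both libraries and 52 (25.4%) in neither, against a background of 16.9% and 36.0% over all nuclear peaks of the list. The kept runs had 18 (15.4%) in both and 49 (41.9%) in neither. Site number was taken from the same gaps that built the runs, so this division was not tested. Runs of few sites have short gaps by definition, and their higher coverage in part follows from that.

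Peaks of dense runs, as listed, were wider than single peaks and did not score higher. The median width was 309 bp in dense runs (quartiles 203 and 536), against 249 bp among single peaks (quartiles 184 and 350). Widths of 1 kb or more were found for 67 dense-run peaks (13.0%), against 22 single peaks (1.80%). Dense runs thus held 67 of the 152 such peaks of the list. After peaks under 1 kb apart were merged and the runs rebuilt, the order of the widths turned round, with 248.5 bp in dense runs and 277 bp among single sites. The classes then held other members, and widths were those of joined spans. Dense sites were the 92 of the 16 kept runs. The 9 runs that joined to a single site counted among the 1421 single sites, so the same peaks are not compared. The median score was 6.20 in dense runs (quartiles 4.03 and 10.69), against 7.36 among single peaks (quartiles 4.53 and 14.25). Scores of 100 or more were held by 6 dense-run peaks (1.16%), against 39 single peaks (3.20%). Scores of 50 or more made up 5.42% of dense-run peaks and 5.49% of single peaks. Peaks in runs of 2 to 4 lay between the other classes for both medians, at 273 bp and 6.87.

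**Figure D2:**
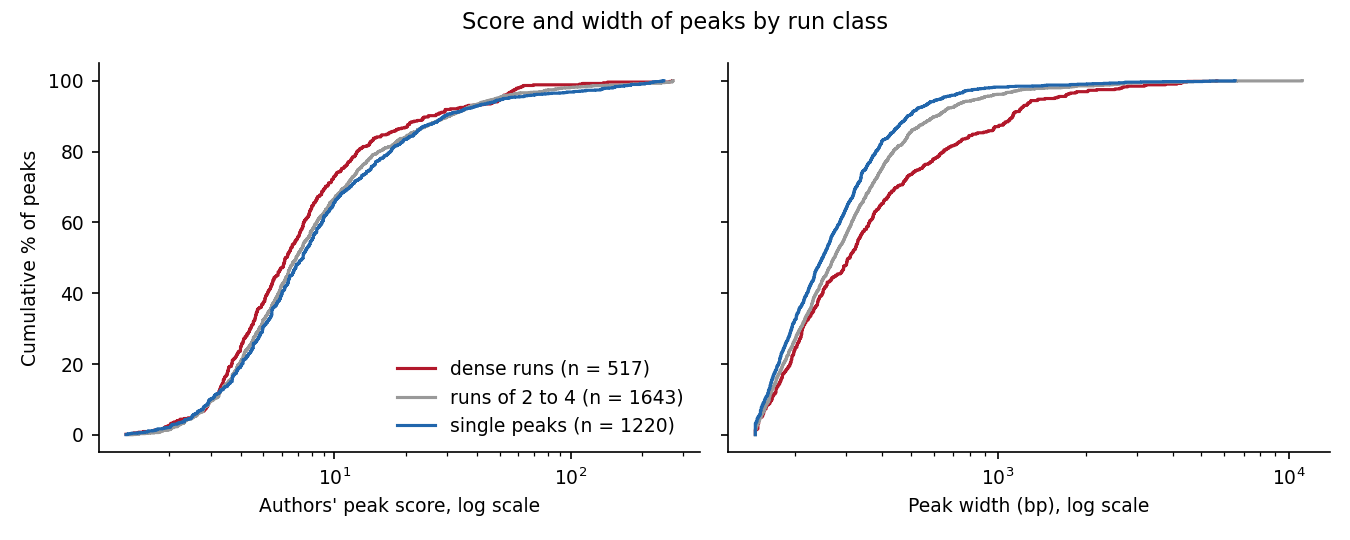
Cumulative percent of peaks by the authors' series-wide score (left) and by width in bp (right), both on log axes, for 517 peaks in dense runs, 1643 in runs of 2 to 4 and 1220 single peaks. The dense-run curve lies to the right of the single-peak curve for width, and slightly to its left for score over most of its length, with medians of 6.20 and 7.36.

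Within a width range the dense-run peaks scored lower. Among peaks of 390 bp or more, the median score was 9.93 for 185 dense-run peaks and 19.16 for 229 single peaks. Among peaks of 267 to 389 bp it was 6.38 and 10.80. In the range of 193 to 266 bp it was 4.84 and 6.72, and in the narrowest range, 146 to 192 bp, 3.84 and 4.53.

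Replicate 1 called dense-run peaks more often than single peaks, and replicate 2 did not. Replicate 1 overlapped 259 dense-run peaks (50.1%, exact 95% interval 45.7 to 54.5%) and 368 single peaks (30.2%, 27.6 to 32.8%), against a background of 40.2% over all nuclear peaks. Replicate 2 overlapped 206 dense-run peaks (39.8%, 35.6 to 44.2%) and 491 single peaks (40.2%, 37.5 to 43.1%), against a background of 40.7%. Both libraries called 109 dense-run peaks (21.1%, 17.6 to 24.9%) and 169 single peaks (13.9%, 12.0 to 15.9%), against 16.9%. Neither library called 161 dense-run peaks (31.1%, 27.2 to 35.3%) and 530 single peaks (43.4%, 40.6 to 46.3%), against 36.0%. Peaks in runs of 2 to 4 were near the dense-run peaks, with 44.5% called in replicate 1, 41.3% in replicate 2, 17.8% in both and 32.0% in neither. The order of the libraries was not the same at every run size: in the 10 runs of 10 or more peaks replicate 1 called 36.1% and replicate 2 48.1%, against 54.1% and 34.1% in the runs of 5. With an overlap of 50% of the smaller peak required, the share called in both was 19.9% for dense-run peaks and 13.7% for single peaks. With 50% of both peaks required it was 8.90% and 10.4%, the reverse order. That last rule cannot pass every one of several peaks under a wider replicate peak. Such sharing was found for dense-run peaks and not for single peaks, so the reversal is in part built in. The intervals cover counting error only. Peaks of a run share their source, often a single replicate peak, so the intervals are too narrow, and no test of the difference was made.

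Width moved with this support. Dense-run peaks of 390 bp or more were called in both libraries in 84 of 185 cases (45.4%), and those of 146 to 192 bp in 2 of 104 (1.92%). For single peaks the same shares were 48.0% (110 of 229) and 0.284% (1 of 352). With the 4 width ranges given equal weight, the share called in both was 17.2% for dense-run peaks and 16.7% for single peaks, against 21.1% and 13.9% without that weighting. For replicate 1 the dense-run share stayed above the single-peak share in each width range, at 30.8% against 17.3%, 34.4% against 16.4%, 49.1% against 31.4% and 71.9% against 68.1%. In the widest range the exact intervals of replicate 1 overlapped. The runs of 2 to 4 lay close to the dense runs, at 28.8%, 32.5%, 43.7% and 70.9%. For replicate 2 it was above only in the narrowest range, at 15.4% against 4.26%, and below in the others, at 18.9% against 30.3%, 53.8% against 65.0% and 59.5% against 76.4%.

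**Figure D3:**
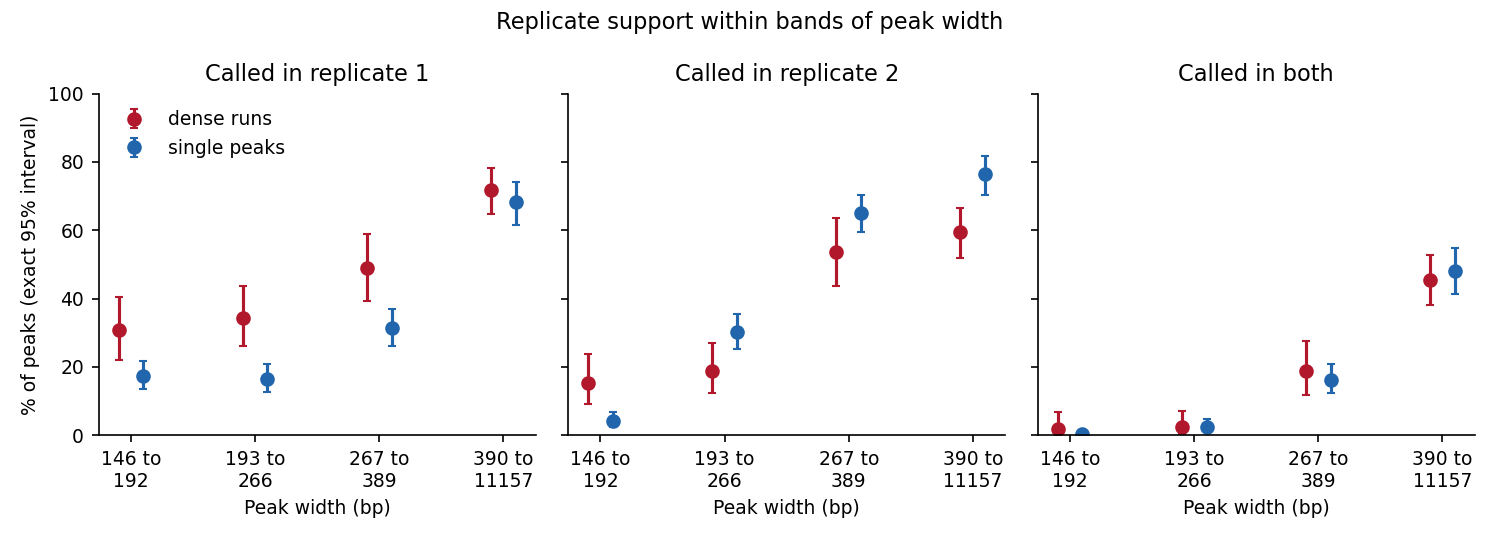
Percent of dense-run peaks (red) and single peaks (blue) called in replicate 1, replicate 2 and both, in 4 ranges of peak width in bp; bars are exact 95% intervals for counting error. The red points lie above the blue in every range for replicate 1, and above it only in the narrowest range for replicate 2; in the widest range both classes reach 45.4% and 48.0% for both libraries.

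Wide dense-run peaks called in neither library came mostly from 2 runs. Of the 185 dense-run peaks of 390 bp or more, 26 (14.1%) were in neither list, against 8 of 229 single peaks (3.49%). The run of 23 peaks on X and the run of 13 on I held 22 of the 26. Without those runs 4 of 158 remained (2.53%). The 2 runs were picked for having the most peaks in neither list, so this fall was built in. The lower share is not comparable with that of the single peaks, from which nothing was left out. Over all widths the pair held 31 of the 161 dense-run peaks in neither list, and without it the shares were 27.0% in neither and 22.2% in both, among 481 peaks.

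Within score ranges the libraries again differed. In the highest range, scores of 12.78 and above, replicate 1 called 65.3% of dense-run peaks and 40.2% of single peaks, and replicate 2 called 84.2% and 92.6%. In the lowest, 1.31 to 4.36, replicate 1 called 39.5% and 19.2%, and replicate 2 called 19.7% and 3.56%. For peaks in runs of 2 to 4, replicate 1 called 40.3% in the lowest range and 48.3% in the highest. Replicate 2 called 10.2% and 94.6% of them. The share in both was higher for dense-run peaks than for single peaks in each of the 4 score ranges. It was 7.89% against 1.42% in the lowest and 59.4% against 35.7% in the highest. From 4.37 to 6.87 it was 6.02% against 4.28%, with overlapping exact intervals, and 6.31% in runs of 2 to 4. Those smaller runs had 2.67% in the lowest range and 45.3% in the highest. Dense-run peaks were wider at like scores, with a median of 598 bp against 366.5 bp in the highest range, and the part of width in these shares was not tested beyond the width ranges above.

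Several dense-run peaks often lay under 1 wider replicate peak. The 259 peaks called in replicate 1 were overlapped by 207 distinct replicate 1 peaks, or 10.0% of that list. Of these replicate peaks 46 covered 2 or more dense-run peaks, and 122 of the 259 shared a replicate peak with a neighbour. In replicate 2, 206 dense-run peaks were overlapped by 165 distinct peaks (11.6% of that list), 31 of which covered 2 or more, and 87 shared one. The replicate peaks behind dense-run peaks had a median width of 509 bp in replicate 1 and 603 bp in replicate 2, against 298 and 446 bp over the whole lists. Runs of 2 to 4 showed this too, to a lesser extent. There 77 of 732 replicate 1 peaks (10.5%) and 41 of 662 replicate 2 peaks (6.19%) covered 2 or more members. The shares behind dense-run peaks were 22.2% and 18.8%. Median widths behind the runs of 2 to 4 were 364 and 460.5 bp. The lists name different callers, whose part was not tested. No replicate peak covered more than 1 single peak, which the gap of 10 kb nearly fixes.

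At the level of runs, all 73 held at least 1 peak called in a library. Over all nuclear peaks 36.0% were in neither list, so a run of several peaks will mostly hold a called one. The same counts are not given for the smaller runs, so the counts here are a description of the dense runs only. Both libraries contributed to 49 runs. Replicate 1 alone supplied called peaks in 14 runs (86 peaks), and replicate 2 alone in 10 runs (85 peaks). In 42 runs at least 1 peak was called in both. All peaks were called in replicate 1 in 12 runs and in replicate 2 in 3 runs. In 7 runs every peak was called in replicate 1 and none in replicate 2, and the reverse held for 1 run. A single run, on the right part of chromosome V, had every peak called in both.

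**Figure D4:**
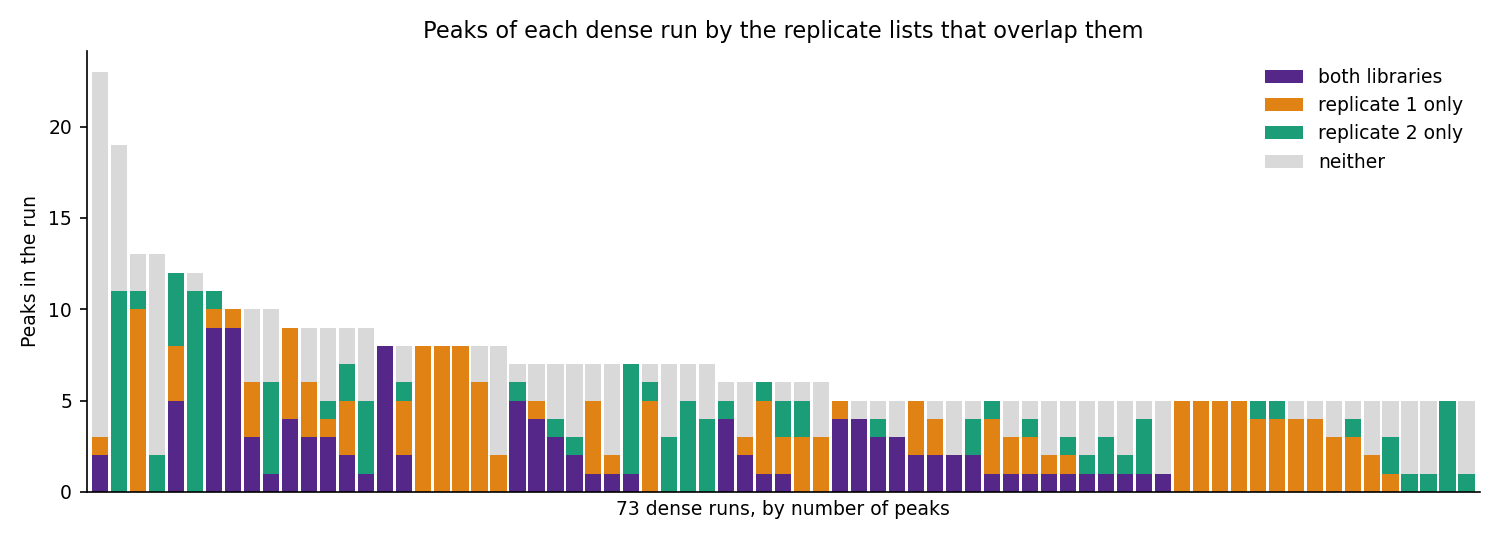
Number of peaks in each of the 73 dense runs, ordered from the most to the fewest peaks, divided by the replicate lists that overlap them. Purple marks peaks in both libraries, orange replicate 1 only, green replicate 2 only and grey neither; 14 bars have no purple or green and 10 have no purple or orange.

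The largest run lay on X at 4025977 to 4056391 and was nearly continuous. Its 23 peaks covered 84.2% of 30.4 kb, and they were 2 sites after joining. Scores lay between 3.38 and 26.96, with a median of 11.34. The first peak, 3232 bp wide, scored 26.96 and was the highest, and it scored up to 325.55 in replicate 1 and 1524.75 in replicate 2. The widest peak, 4315 bp at 4036236 to 4040550, scored 24.95 and was called in neither library. Replicate 1 had 6 peaks in the span and replicate 2 had 4, and the last of them ended 6516 bp and 4115 bp past the first base of the run. The last 20 peaks of the run, several of them over 1 kb wide, were called in neither library.

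Its counterpart on chromosome I, 4341152 to 4357593, had 13 peaks over 80.3% of 16.4 kb and became a single site. Scores lay between 3.11 and 12.22 with a median of 8.42. The highest peak was at 4349980 to 4350942 and the widest, of 2668 bp, was the first. Replicate 1 had no peak in the span. Replicate 2 had 1 peak of 4425 bp with a score of 115.89, which covered the first pair of peaks, and the other 11 were called in neither library.

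Several other runs with over 70% of their span under peaks were called in both libraries in part, while the one at 694314 on II, described below, had calls from replicate 1 alone. The fullest run, at 10266480 to 10276922 on I, had 5 peaks over 91.8% of its span. Its first peak, 5666 bp wide, was the widest dense-run peak of all and scored 23.34, the highest of the run. Replicate 1 covered 4 of the 5 peaks with 1 peak of 10047 bp at the tied score of 3100. The 3 replicate 2 peaks there scored between 62.39 and 88.60 in their own list. On IV, 4416465 to 4421875 held 7 peaks over 70.6% of 5411 bp, with scores of 3.11 to 11.31 and the highest and widest peak (773 bp) at the start. Replicate 2 covered 6 of them with 1 peak of 5151 bp (score 408.10), and replicate 1 covered 5 with 1 peak of 2636 bp (score 141.15). On V, 9086752 to 9091601 held 6 peaks over 78.0% of its span with a median score of 19.79. The highest and widest, 1230 bp at 9089261, scored 30.94, and 4 of the 6 peaks were called in both libraries. The run at 6566860 to 6576869 on III had 9 peaks over 77.1% of its span, all called in replicate 1 and 4 in replicate 2. There 1 replicate 1 peak of 6036 bp scored 2229.98 in its list, and replicate 2 had 5 peaks with scores of 51.02 to 225.16 in its own. Its highest peak (11.67) was at 6570534 and its widest (2040 bp) was the first.

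The most evenly spaced run was the tightest on chromosome I, at 14885111 to 14891154. Its 10 peaks started between 574 and 809 bp apart, with a median step of 609 bp and a coefficient of variation of 0.110, against a median of 0.830 over the 73 runs. Peaks were 353 to 594 bp wide, the first being the widest, and scored 3.87 to 11.83, the highest at 14887700. Replicate 1 had 1 peak of 6153 bp over all 10, with a score of 2742.12. Replicate 2 had a pair of peaks scoring 113.76 and 134.96, which together overlapped 9. The 10 regular pieces were thus separate peaks in the series-wide list and not in the list of either library. Signal within the replicate peaks was not examined, and the source of the regular spacing was not tested.

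**Figure D5:**
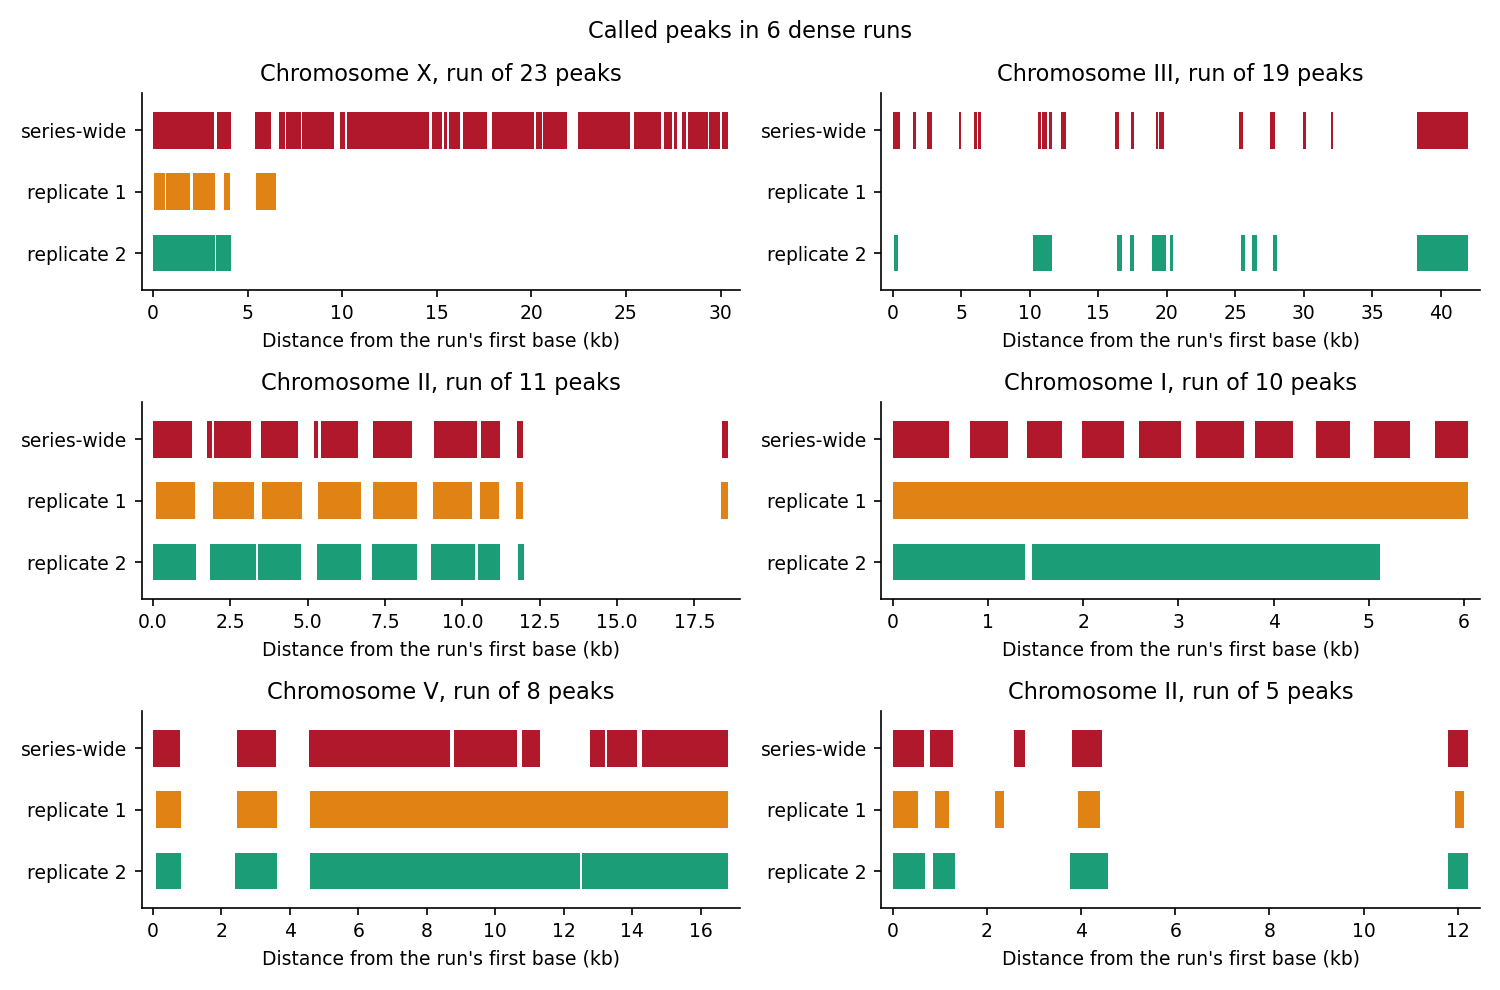
Called peaks in 6 dense runs, by distance in kb from the run's first base, in the series-wide list (red), replicate 1 (orange) and replicate 2 (green); replicate peaks reaching past a run are drawn to its edge. On X the replicate peaks end by 6516 bp, on III replicate 1 has no peak, on I 10 regular series-wide peaks lie under 1 replicate 1 peak, on V wide replicate peaks lie over 6 of the 8, and in both runs of II the replicate peaks follow most of the series-wide ones.

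The highest scores belonged to a few runs. By median score the first was at 5346325 to 5358549 on II, with 5 peaks scoring 262.86, 137.58, 2.21, 270.14 and 58.71. In replicate 1 the 4 high peaks scored 857.79, 396.78, 888.94 and 102.90, and in replicate 2 they scored 3100, 1945.65, 3100 and 595.88. The low one was called in neither library, although a replicate 1 peak lay beside it. The 4 high peaks were 430 to 651 bp wide, against a median of 266 bp over the list. Of the 6 dense-run peaks with scores of 100 or more, 3 were in this run. Another pair, at 3447924 and 3450982, stood in a run on III (3447924 to 3460338) and scored 112.18 and 108.94. Their scores were 131.44 and 134.55 in the replicate 1 list, and 1303.28 and 1400.13 in the replicate 2 list. The other 3 peaks of that run scored between 4.99 and 22.41.

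On chromosome V, 17115344 to 17132151 held 8 peaks of like score, from 46.57 to 55.16 with a median of 51.92. They covered 73.1% of 16.8 kb. The highest was at 17124131 and the widest, 4127 bp, at 17119901. Replicate 1 had 4 peaks there, the widest 11914 bp, with scores between 303.48 and 3100, and replicate 2 had 4, the widest 7890 bp, with scores between 948.82 and 3100. Every one of the 8 was called in both libraries. Chromosome V is known to carry a tandem array of genes for a small ribosomal RNA and for spliced-leader RNA. The position of that array was not compared with this run, because no annotation of the same build was used here.

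Broad, high peaks also filled most of a run on II and part of one on V. At 13817470 to 13836065 on II, 11 peaks had a median score of 42.62, the highest 62.40 at 13822904 and the widest 1365 bp at 13826562. The first 6 replicate 1 peaks of the span scored between 2690.89 and 3152.39, and replicate 2 peaks scored up to 1588.70. Each library called 10 of the 11, and 9 were called in both. At 8879068 to 8898576 on V, 4 of 7 peaks scored 48.98 to 61.28, with the highest at 8894988 and the widest, 1139 bp, at 8891818. Those 4 were called in both libraries. The other 3 scored 3.24 to 4.04.

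Some runs belonged to 1 library. Replicate 1 called all 8 peaks at 1117033 to 1124023 on I (highest score 9.91 at 1123474, widest 627 bp), while replicate 2 called none. The same held for all 5 peaks at 694314 to 699095 on II, where scores reached 14.45 in the first peak, 1709 bp wide, and the 3 replicate 1 peaks that overlapped them scored 1209.64 to 2197.29. On IV it held for 8 peaks at 7592192 to 7599663, with a highest score of 6.80 at 7597331 and a widest peak of 586 bp. It also held for 5 peaks at 9058992 to 9067344, where the highest score was 10.04 at 9066974 and the widest peak 375 bp. The 5 peaks at 14205711 to 14215420 on IV ended in the highest and widest peak, 2623 bp with a score of 12.41, under a replicate 1 peak tied at 3100. The tightest run on II, 11214477 to 11216502, had 5 peaks of 164 to 203 bp within 2026 bp, scored 2.86 to 5.37, and lay under 1 replicate 1 peak of 2143 bp with a score of 530.76. Its highest peak was the first and its widest at 11214753. In each of these 6 runs at least 1 replicate 1 peak lay over 2 or more series-wide peaks. The largest run of IV, 682867 to 706622, had 10 of 13 peaks in replicate 1 and 1 in replicate 2. Replicate 1 scored up to 2953.24 there in its own list. The series-wide scores lay between 3.51 and 8.46, with the highest at 692702 and the widest peak, 2694 bp, at 688845.

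Runs called in replicate 2 and not in replicate 1 were fewer. The run at 7406072 to 7448094 on III was the longest of all, at 42.0 kb, with 19 peaks in 10 sites. Replicate 2 called 11 of its peaks and replicate 1 none. Most were low and narrow, with a median score of 3.68, and the last, at 7444326 to 7448094, stood apart with 29.27 and a width of 3769 bp. Replicate 2 had a pair of peaks under it, scoring 2504.49 and 1292.15, and its other peaks in the run scored 53.16 to 227.32. The tightest run on III, 1017629 to 1020410, had 5 peaks scoring 3.35 to 6.80, all called in replicate 2 with scores of 139.68 to 528.32. Its highest peak was at 1018440 and its widest, 1083 bp, at 1019328. On X, 10361032 to 10372765 had 12 peaks, 11 of them called in replicate 2, under 4 replicate 2 peaks scoring 160.07 to 1556.71. The highest (15.09) was at 10367113 and the widest (1204 bp) was the first. One replicate 1 peak, with a score of 68.87, lay in the span without touching a series-wide peak. On IV, 6349252 to 6360953 had 5 of 7 peaks under 1 replicate 2 peak of 3106 bp (score 745.72), and the highest and widest peak (7.85, 1132 bp) was at 6359094.

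Further large runs drew on both libraries in part. On V, 6171842 to 6183194 had 12 peaks in 4 sites, 8 called in replicate 1, 9 in replicate 2 and 5 in both, so that none was in neither list. Its scores ran from 1.48 to 17.24, the highest at 6174449 and the widest peak (1003 bp) at 6172392. The overlapping replicate peaks scored 75.71 to 252.56 in replicate 1 and 138.57 to 356.22 in replicate 2. On X, 7344888 to 7361244 had 10 peaks, the widest of them 4467 bp at 7352048, which was also the highest, at 11.67. Replicate 1 divided the span into 13 narrow peaks, none wider than 358 bp, and replicate 2 had 3. At 16928113 to 16938580, also on X, 6 of 10 peaks were called in replicate 2 and 1 in replicate 1. The highest, 29.43 at 16929467, was the one called in both libraries, and the widest was 1040 bp at 16931259.

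The rest of the runs that joined to 1 or 2 sites spanned at most 12.6 kb, and none had all its peaks called in both libraries. On I, 7 peaks at 4535875 to 4548352 were all called in replicate 2 (highest 27.76 at 4546444, widest 2039 bp at 4544270) and 1 in replicate 1. At 931874 to 943016 on I, 4 of 5 peaks were called in replicate 1 and 1 in replicate 2, the one of 1372 bp at 933380 with a score of 28.36. The run at 11633897 to 11636927 on II had 4 of 5 peaks in replicate 2 and a highest and widest peak of 18.23 and 554 bp at 11634860. In the run at 13460613 to 13465546 on II only the first peak, with a score of 52.17 and 323 bp wide, was called, and only in replicate 2. The run at 6998121 to 7010719 on III held the longest gap of any dense run, 9124 bp, before its highest peak (18.67 at 7010390), and its widest peak was 552 bp at 7000261. Near the right end of III, 13775615 to 13783731 had 2 of 6 peaks in both libraries, the highest (20.88) last and the widest (372 bp) first. On IV, 8252893 to 8258654 had 4 of 5 peaks in replicate 1 and the highest, 21.14 at 8252893, in replicate 2, and its widest peak was 317 bp at 8255821. On X, 4960439 to 4972468 had 3 of 7 peaks in both libraries (highest 10.06 at 4961573, widest 651 bp at 4961954). The tightest run of X, 8996983 to 9000938, had 4 of 5 peaks in replicate 1, and its peak at 9000198 was the highest and widest (6.52, 302 bp).

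The 16 runs that kept 5 or more sites lay on I (1), II (4), III (7), IV (2) and V (2). Besides the runs on III at 7406072 and 3447924 and on V at 8879068 described above, they were mostly made of low peaks. Some of these runs also held 1 or a few high peaks, and others held none. On I, 7079218 to 7099841 had 6 peaks scoring 2.94 to 7.33 and 1 of 69.46 at 7090156, which scored 1126.56 in replicate 2. At 3847994 to 3867700 on III, peaks of 55.89 and 57.01 stood among 4 of 5.77 to 13.64. At 1236510 to 1253513 on II, 7 peaks remained 7 sites, with gaps of 1192 to 4259 bp and scores of 3.44 to 9.43, and 5 were called in replicate 1 and 1 in replicate 2. On the same chromosome the run at 1961998 to 1983306 had all 8 peaks called in replicate 1 and none in replicate 2. On V, 18712105 to 18743687 spread 8 peaks as 7 sites over 31.6 kb, with scores of 2.03 to 16.93. The median score of the kept runs was lowest at 12177936 to 12188702 on IV, at 2.89, where 3 of 6 peaks were called in replicate 1 and none in replicate 2.

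Within a run the peaks were of unlike score. The highest peak scored a median of 2.15 times the median of its run, with a range of 1.06, in the V run at 17115344, to 25.9, in the III run at 10739756, whose last peak scored 143.27. In 33 runs the ratio was under 2 and in 5 it was 10 or more. The highest peak was the first or last of its run in 33 of 73 runs (45.2%), and it was also the widest in 35 runs. Of all dense-run peaks, 28.2% held an end position. That share is weighted to the longest runs, where end peaks are the smallest part, so it is not a matching reference for a share of runs. For end peaks the median score was 6.56 and the median width 261 bp, against 6.13 and 314 bp for inner peaks. Both libraries called 26 of 146 end peaks (17.8%) and 83 of 371 inner peaks (22.4%). Members of the 10 largest runs were wider than those of the smaller ones, with medians of 408 and 268.5 bp, and the 23-peak run of X and the 13-peak run of I are among the 10.

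Dense runs were found on every nuclear chromosome. Chromosome II had the largest share of its peaks in dense runs, 108 of 515 (20.97%), before III with 103 of 548 (18.8%). The shares were 14.3% on X (91 of 635), 13.3% on IV (75 of 565), 12.8% on V (65 of 508) and 12.3% on I (75 of 609). The density of runs was highest on II, at 1.18 per Mb, and lowest on V, at 0.430. Support differed more than number. On V 29 of 65 dense-run peaks (44.6%) were called in both libraries, against 31 of 194 single peaks (16.0%), and of those 29 peaks 8 were from the run at 17115344. On IV it was 6 of 75 (8.00%), against 27 of 182 single peaks (14.8%), and replicate 1 called 61.3% of the dense-run peaks there and replicate 2 called 24%. On X 12.1% of dense-run peaks were called in both, against 14.2% of single peaks. On I, II and III the dense-run shares were 28.0%, 22.2% and 17.5%, against 12.0%, 11.4% and 14.8% for single peaks. A few runs make up each chromosome's share, so no order of chromosomes was tested.

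Along the autosomes, each divided into 3 parts of equal length, 41 runs had their midpoint in the outer parts (0.745 per Mb) and 23 in the middle parts (0.836 per Mb). The share of peaks in dense runs was 15.2% in the outer parts (276 of 1818) and 16.2% in the middle (150 of 927). Replicate 1 called 55.4% of the outer members and 48.7% of the middle ones, and replicate 2 called 39.1% and 44.7%. Runs with calls from replicate 1 alone numbered 10 in the outer and 2 in the middle parts, and those from replicate 2 alone 5 and 4. On X 6 runs lay in the outer parts and 3 in the middle.

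The replicate lists were dense in the same spans. Replicate 1 had 245 peaks there (11.9% of its list), or 240 per Mb, against 18.3 per Mb elsewhere. Replicate 2 had 168 (11.8%), or 165 per Mb, against 12.7 per Mb. Median widths were 509 bp inside and 281 bp outside in replicate 1, and 598.5 and 437 bp in replicate 2. The median score in replicate 1 was 142 inside and 90.9 outside, and in replicate 2 it was 160 inside and 153 outside. The spans were drawn from a list probably made of these libraries, so this enrichment is not independent of the rule.

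Built by the same rule, the runs of each library were fewer than those of the series-wide list, which is also the longer list. Replicate 1 had 46 runs with 297 of its 2065 peaks (14.4%), the largest of 17, and placement at a constant rate gave 2.27 runs. Replicate 2 had 14 runs with 88 of its 1427 peaks (6.17%), the largest of 11, against 0.530. In the series-wide list 73 runs held 15.3% of 3380 peaks, against 19.4 runs at a constant rate. Of the replicate 1 runs 23 (50.0%) touched a series-wide dense run, and they touched 23 of the 73 (31.5%). Of the replicate 2 runs 6 (42.9%) did, touching 6 of the 73 (8.22%). Between the libraries 5 runs of replicate 1 (10.9%) overlapped runs of replicate 2, which is 5 of 14 (35.7%) there. After joining peaks under 1 kb apart, 8 runs were left in replicate 1 and 1 in replicate 2.

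Runs just inside the limit of 5 peaks can be set beside those just outside it. The 34 runs of 5 peaks had medians of 6.14 for score and 256.5 bp for width, and the 62 runs of 4 had 6.99 and 273 bp. Both libraries called 18.8% of peaks in the runs of 5 and 17.7% in the runs of 4. Replicate 1 called 54.1% and 47.2%, and replicate 2 called 34.1% and 46.8%. The next peak beyond a run of 5 lay at a median distance of 22420 bp, and beyond a run of 4 at 24654.5 bp. The closest to the limit of 10 kb among runs of 5 was that at 7594603 on III, whose neighbour lay 10214 bp away, then 9058992 on IV (10263 bp), 415387 on III (10942 bp), 931874 on I (11255 bp) and 13460613 on II (11695 bp). Among runs of 4 it was 8619206 on I (10191 bp), then 1426318 on I (10229 bp), 9045911 on IV (10263 bp), 8328120 on V (11508 bp) and 14776599 on IV (11531 bp). The run of 4 at 9045911 and the run of 5 at 9058992 on IV are neighbours across the same gap, the first called only in replicate 2 and the second only in replicate 1.

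The 5 highest single peaks were also called in both libraries. They lay at 14112926 (score 248.13), 1958305 (242.81) and 14721289 (229.55) on I, and at 10460926 (238.37) and 1618709 (224.26) on III. Their widths ran from 468 to 661 bp, against a median of 249 bp for single peaks. In replicate 1 their scores ran from 561.02 to 2907.52 and in replicate 2 from 2758.54 to 3100. The highest dense-run peaks, which scored 270.14 and 262.86 on II, were 642 and 651 bp wide and called in both libraries too.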

How the data were processed

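ChIP-seq peak lists of 2 SMC-6 ChIP libraries and 1 series-wide list were analysed. Per the submitters' processing notes the aligner was BWA (no version is listed) and the genome build ce10. Coordinates are on WormBase WS220, per the file headers, and are 1-based. The source field of the files names MACS for each replicate list and MACS v2 for the list of the whole series. The deposited score of each peak is the authors' own, and no header gives its scale. How libraries were joined, thresholds, which input was used and read depth are not given in the sources used here. In the replicate lists 18 and 28 peaks tied at 3100.

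Runs and members were chosen with earlier results of these data known. Chromosome length was the last base of any listed peak. Shares carry exact (Clopper-Pearson) 95% intervals. The number of runs at a constant rate of peak starts came from a closed formula, for merged sites with gaps of at least 1 kb. A shared peak needed 1 bp of overlap. No hypothesis test was run. Mitochondrial peaks were set apart, and annotation and base composition were not used, since the gene table at hand is of another build. Python 3.11.15, numpy 2.4.6, pandas 2.3.3, scipy 1.17.1 and matplotlib 3.10.9 were used.

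Named regions were the 10 runs with most peaks, the run with most peaks and the one with the shortest span per peak on each chromosome, the 5 with the highest median score, any with every peak in both lists or in neither, and any joining to 1 or 2 sites, each with its highest and widest peak. The kept runs were described besides, and examples among them were chosen after their values were seen. The alternatives were linking gaps of 5 and 20 kb, run sizes of 4 and 6, merging, the upper 50% of peaks by score, stricter overlaps, equal weights and each library alone.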

Additional observations from a re-analysis of the deposited data

Results flagged for a closer look

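The mitochondrial genome lay outside the rule and carried a signal of its own. The series-wide list held 12 mitochondrial peaks, all linked into 1 run, with gaps of 60 to 592 bp. They covered 9786 bp and scored 14.7 to 94.82. Replicate 1 had 3 mitochondrial peaks over 3153 bp, and replicate 2 had 3 over 13186 bp with scores of 2744.18 to 3100. Input signal there was not analysed.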

How the results depend on the processing

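Of 73 alternative values, 37 stayed near the reported value, within 1.5 times for counts and within the counting interval for medians and shares, and 36 moved. No paired analysis was possible because the results come from no test and no peak list of the input libraries was analysed. The number of dense-run peaks, 517 in 73 runs, became 1033 in 149 with a linking gap of 20 kb, 92 sites in 16 runs after merging, and 87 in 11 runs with the upper 50% of peaks by score. Runs numbered 135 with a minimum of 4 peaks and 39 with 6. In 1 replicate list alone there were 88 to 297 peaks in 14 to 46 runs. The median score of dense-run peaks was 5.72 after merging and 12.26 in the upper 50%, where single peaks had 12.52. The median width of dense-run peaks was 342 bp with a gap of 5 kb, 276 with 20 kb, 332 with at least 6 peaks, 248.5 after merging, 794 in the upper 50% and 428 to 517.5 in 1 replicate list. Single peaks had 277 bp after merging, 320 in the upper 50% and 253 to 437 in 1 replicate list. After merging the classes held other members and joined spans, and the dense-run median was the lower one. The percent called in both libraries, for dense-run and single peaks, was 40.2 and 24.1 in the upper 50%. It was 17.2 and 16.7 with equal weight to width ranges. With an overlap of 50% of the smaller peak it was 19.9 and 13.7. An overlap of 50% of both peaks gave 8.90 and 10.4. This turned the order round, in part by the form of that rule. After merging it was 19.6 for dense-run sites and 17.0 for single sites. With 1 library alone the share called was 39.8 to 50.1 for dense-run peaks and 30.2 to 40.2 for single peaks. Leaving out the 2 runs with most peaks in neither list, and giving runs equal weight, were chosen after seeing the data. The cause of the moves was not tested. The unknown depth limits what an uncalled peak shows.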

Other observations

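A set of broad, high peaks of like size recurred in dense runs, chosen here after the values were seen. Peaks of 1000 to 1500 bp with a series-wide score of 40 or more numbered 14 among the 517 dense-run peaks, against 4 among the 1643 peaks of runs of 2 to 4 and 1 among the 1220 single peaks. All of these were called in both libraries. The 4 peaks of the smaller class lay in 4 of its 675 runs. The 14 dense-run peaks lay in 4 of 73 runs, and peaks of the same run are not separate cases. The II run at 13817470 had 6 of them, 1184 to 1365 bp wide, which scored 42.62 to 62.40 in the series-wide list, 2690.89 to 3152.39 in replicate 1 and 1156.30 to 1588.70 in replicate 2. A run on V at 8844800 to 8868065 had 3, 1100 to 1124 bp wide, with scores of 2189.81 to 2601.23 in replicate 1 and 978.31 to 1443.72 in replicate 2. The next run on V, at 8879068, had 4, 1126 to 1139 bp wide, with 2143.18 to 2979.12 in replicate 1 and 974.46 to 1461.83 in replicate 2. The last was the second peak of the V run at 17115344, 1151 bp wide. Narrow peaks with scores under 9 stood between or beside the broad ones in the pair of neighbouring V runs. What genes lie there was not examined, since no annotation of the same build was used.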
